A study of Mus musculus with 9 samples.

Results

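Cystatins were followed in 9 RNA-seq libraries of transduced mouse bone marrow cells. The 8 genes were chosen by name among the 55274 gene identifiers of the expression tables. Of these, 5 (Csta2, Csta3, Cstdc4, Cstdc5 and Cstdc6) lie in the stefin cluster on chromosome 16, and 3 (Cstb, Cst3 and Cst7) lie elsewhere. All 8 had an FPKM (a fragment count scaled to the length of the transcript and to the mapped fragments of the library) of at least 1 in at least 3 libraries, so that all were among the 13493 genes tested. The 5 cluster genes pass this filter through the groups in which they are high, and the paper that reported these data names them, so that they are not independent evidence of a direction.

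Bone marrow cells came from female C57BL/6J mice aged 6 to 8 weeks that had received 150 mg/kg of 5-fluorouracil 4 days earlier. They were held for 48 h in human interleukin-6, murine interleukin-3 and murine stem cell factor, and then transduced with MSCV retroviral vectors. The NRASG12D group carried mutant NRAS with the marker BFP, the NUP98-NSD1 group carried the fusion with the marker GFP, and the NUP98-NSD1+NRASG12D group carried both. Sorted cells were expanded before RNA was taken, and each group has 3 libraries. There was no group with empty vectors, the viral promoter drives each insert, and no source used here says whether libraries of a group came from separate animals, so p-values measure the spread between these libraries. By immunophenotype the NRASG12D cultures were mostly mast cells, so a comparison with them is also a comparison of cell types. Estimated depth ran from 23500000 to 37000000 fragments per library. The row of mouse Nras served as a check of the NRASG12D label. It held at least 245 FPKM in each library with that vector and at most 51.2 FPKM in those without. For the fusion label, mouse Nup98 reached 11.1 FPKM where the fusion was absent. Where it was present, Nup98 began at 11.9 FPKM, in replicate 1 of NUP98-NSD1+NRASG12D. Mouse Nsd1 overlapped, from 11.7 to 14.7 FPKM where the fusion was absent and from 9.98 to 16.2 FPKM where it was present. The fusion label was thus separated narrowly by Nup98 and not by Nsd1. The mast cell gene Cpa3 was listed at 0 in the 3 NRASG12D libraries and at 12564 to 14378 FPKM in NUP98-NSD1 cells, while Actb and Gapdh were not at 0 in any library, and a listed 0 in these tables can therefore be a failed estimate.

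Cystatins are tight, reversible inhibitors of papain-like cysteine proteases, the enzymes that include most lysosomal cathepsins. The type 1 cystatins, or stefins, are small proteins without a signal peptide that act mainly inside the cell. Stefin B is encoded by Cstb, while the stefin A genes have multiplied in the mouse into a cluster of close copies, several of which are known from neutrophils and their precursors. Type 2 cystatins are secreted or enter the endosomal system. Cystatin C (Cst3) is made by most tissues, and cystatin F (Cst7) is made mainly by blood cells and inhibits cathepsin C and related enzymes in granules and lysosomes.

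The cluster held 11 named genes over 335 kb, on GRCm38 at chr16:36119946-36455392, and 10 of them were annotated as protein-coding. In this order they were Csta1, Stfa2l1, Cstdc4, Csta3, Csta2, Stfa1, the pseudogene Cstdc3, Cstdc6, Cstdc5, Stfa2 and Stfa3. Cystatins carry a first hairpin loop that reaches into the active site of the protease, and the bases for this loop begin with CA and carry GT and then GG at the start of later codons. The stretches around it are shown because they tell the copies apart and show how far they can share reads. Each is 45 coding bases from GENCODE M21 transcripts, 5′ to 3′ on the coding strand, with the 15 bases of the loop in capitals.
Cstdc5: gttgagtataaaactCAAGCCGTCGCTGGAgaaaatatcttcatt
Cstdc6: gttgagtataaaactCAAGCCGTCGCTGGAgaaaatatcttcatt
Cstdc4: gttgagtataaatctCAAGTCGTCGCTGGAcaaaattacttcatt
Csta2: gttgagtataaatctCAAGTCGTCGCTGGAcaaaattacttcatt
Csta3: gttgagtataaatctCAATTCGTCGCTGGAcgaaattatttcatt
Cstb: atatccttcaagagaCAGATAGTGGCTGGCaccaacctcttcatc
Cst3: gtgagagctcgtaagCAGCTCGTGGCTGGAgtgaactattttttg
Cst7: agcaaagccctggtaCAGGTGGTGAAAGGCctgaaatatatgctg

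The stretches of Cstdc5 (exon 2, chr16:36364215-36364259, minus strand) and Cstdc6 (exon 2, chr16:36322924-36322968, minus strand) were the same letters. Those of Cstdc4 (exon 2, chr16:36186418-36186462, plus strand) and Csta2 (exon 2, chr16:36255595-36255639, plus strand) were also the same letters. Csta3 (exon 2, chr16:36213572-36213616, plus strand) differed from both pairs. The stretch of Cstb lies in exon 2 at chr10:78426981-78427025 on the plus strand, whereas those of Cst3 (chr2:148872904-148875170, minus strand) and Cst7 (chr2:150575859-150577682, plus strand) are split by an intron. Over the whole coding sequence, Csta2 and Cstdc4 were 96.9% identical, Cstdc5 and Cstdc6 95.2%, and Csta3 and Cstdc5 89.3%. The cluster members were 57.8% to 63.3% identical to Cstb and 41.4% to 44.4% to Cst3 and Cst7. Identical bases were divided by the length of the longer sequence of each pair. Csta2 has 291 coding bases, against 294 in Cstb, 420 in Cst3 and 432 in Cst7. The values for Cst3 and Cst7 are thus lowered by length and cannot be set against that for Cstb.

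This likeness bears on the values. Of the stretches of 50 bases in its transcripts, Cstdc5 shared 36.2% with transcripts of other genes, Cstdc6 33.7%, Csta2 20.4% and Cstdc4 14.2%. Csta3, Cstb, Cst3 and Cst7 shared 0%. How reads with several alignments were split is not given in the sources used here, so the division of the signal among Cstdc5, Cstdc6, Csta2 and Cstdc4 is uncertain. Csta3 is the member of the cluster with no exact stretch in common, but its coding sequence is 89.3% identical to that of Cstdc5. Whether reads with mismatches were exchanged there was not tested. A noncoding gene on the other strand, Gm15845, overlaps Cstdc5 and stayed at or under 1.22 FPKM in every library, and whether strand was used in counting is not given either.

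The window upstream of the start sites was read from RefSeq (GRCm38.p6, 250 bases before to 50 after the start), which held 12 of the 14 genes looked up, and not Cstdc6 or Cstb. The motif CCTTTAAAAC was chosen after the sequences were seen, because the same letters recurred in the windows of the cluster. It is among 13 words of 10 letters that occur in 7 or more of the 10 windows. It was found in 7 of the 10 windows from the cluster and in 0.128% of 32851 windows of the same length in the genome. The 7 matches are shown with the 20 bases before them, 5′ to 3′ on the strand of the gene, with the motif in capitals.
Cstdc5: agaggaggagtttacagataCCTTTAAAAC
Cstdc4: agaggaggagtttacagataCCTTTAAAAC
Csta3: ataggaggtttttacagataCCTTTAAAAC
Stfa1: agaggaggagctttcggataCCTTTAAAAC
Stfa2: agaggaggagcttacagaaaCCTTTAAAAC
Stfa2l1: agaggaggagtttacagaaaCCTTTAAAAC
Stfa3: gaggaggagcttacagataaCCTTTAAAAC

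The match begins 11 bases before the RefSeq start in Cstdc5 (chr16:36367572-36367601, minus strand), 31 bases before it in Cstdc4 (chr16:36184161-36184190, plus strand) and 79 bases before it in Csta3 (chr16:36210304-36210333, plus strand). In Stfa1 (chr16:36277096-36277125, plus strand), Stfa2 (chr16:36408385-36408414, minus strand), Stfa2l1 (chr16:36156756-36156785, plus strand) and Stfa3 (chr16:36455416-36455445, minus strand) it begins 31 to 35 bases before the start. It was not in the windows of Csta2, Csta1, Cstdc3, Cst3 or Cst7. Between aligned windows, those of Cstdc4 and Cstdc5 were 66.7% identical and those of Stfa1 and Cstdc5 83.8%, so the windows are close copies and not separate observations. The window of Csta2 was 43.4% identical to that of Cstdc4 although their coding sequences nearly matched, which is near the 44.0% to 45.5% between Cst7 and each of Cstdc4, Csta3, Csta2 and Cstdc5. The bases before the RefSeq start of Csta2 end at chr16:36221561, and its loop stretch begins at chr16:36255595. For Cstdc4 these positions are chr16:36184211 and chr16:36186418, so the Csta2 start lies much farther from the matching coding stretch. Whether the windows of this pair are counterparts was not tested. To let the windows be compared, 120 bases before the start of Cstdc4 (chr16:36184092-36184211, plus strand) and Cst7 (chr2:150570295-150570414, plus strand) are given.
Cstdc4: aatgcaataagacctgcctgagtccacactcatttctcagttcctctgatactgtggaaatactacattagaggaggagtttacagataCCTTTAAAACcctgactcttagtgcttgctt
Cst7: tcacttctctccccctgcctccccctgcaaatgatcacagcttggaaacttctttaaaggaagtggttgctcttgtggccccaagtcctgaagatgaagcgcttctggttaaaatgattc

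Searched on both strands, the TATA box TATAAA was in 0 of the 10 cluster windows and in 13.6% of all windows. The RUNX core TGTGGT was in 8 of 10 and in 16.8% of all, the PU.1 core GAGGAA in 7 of 10 and 28.3%, the GATA core AGATAA in 4 of 10 and 11.2%, the C/EBP core TTGCNNAA in 3 of 10 and 10.8%, the AP-1 site TGANTCA in 2 of 10 and 7.81%, and the E box CACGTG in 0 of 10 and 7.15%. No match in a cluster window overlapped another, while in the window of Cst7 the C/EBP and AP-1 matches did. These are letters in a window and not sites of binding.

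All 5 cluster members followed the same order of groups, lowest in NRASG12D, higher in NUP98-NSD1 and highest in NUP98-NSD1+NRASG12D cells, and no library of a group overlapped with the next group. Over all tested genes, 50.7% stood fully apart with NUP98-NSD1 above NRASG12D, and 11.6% with NUP98-NSD1+NRASG12D above NUP98-NSD1. Cstdc5 had 0, 4.62 and 0.497 FPKM in NRASG12D replicates 1 to 3, 57.5, 24.4 and 58.2 in NUP98-NSD1, and 219, 1058 and 4076 in NUP98-NSD1+NRASG12D. Replicate 3 of the last group was the highest, and Cstdc5 ranked 9 among all genes there, against 558 in replicate 1 of the same group. Cstdc4 had 0.0747, 4.60 and 0.139 FPKM in NRASG12D, 63.2, 22.3 and 47.5 in NUP98-NSD1, and 169, 595 and 2899 in NUP98-NSD1+NRASG12D cells. Its rank in the same libraries of NUP98-NSD1+NRASG12D was 802, 116 and 16. Csta2 had 0.122, 1.43 and 0.347 FPKM in NRASG12D, 35.8, 15.0 and 23.4 in NUP98-NSD1, and 109, 277 and 1528 in NUP98-NSD1+NRASG12D cells.

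Cstdc6 and Csta3 gave the same pattern at a lower level per length of transcript. Cstdc6 had 0, 0.369 and 0.0358 FPKM in NRASG12D, 7.64, 3.27 and 6.24 in NUP98-NSD1, and 24.4, 90.0 and 320 in NUP98-NSD1+NRASG12D cells. Csta3 had 0, 0.371 and 0 FPKM in NRASG12D, 4.27, 2.25 and 4.10 in NUP98-NSD1, and 13.5, 57.0 and 323 in NUP98-NSD1+NRASG12D cells. Replicate 2 was the highest of NRASG12D and the lowest of NUP98-NSD1 for each of the 5 genes, and replicate 3 was the highest of NUP98-NSD1+NRASG12D for each. The NRASG12D values lie near the limit of the depth. In Csta3 the value of replicate 2 equals about 1.98 fragments, and 3 fragments would give 0.563 to 0.887 FPKM in these libraries. For Csta3, the sum of about 43 fragments in NUP98-NSD1 against 2 in NRASG12D gives a ratio of 22 per fragment sequenced, with an exact 95% interval of 5.74 to 188 that covers counting error only.

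**Figure D1:**
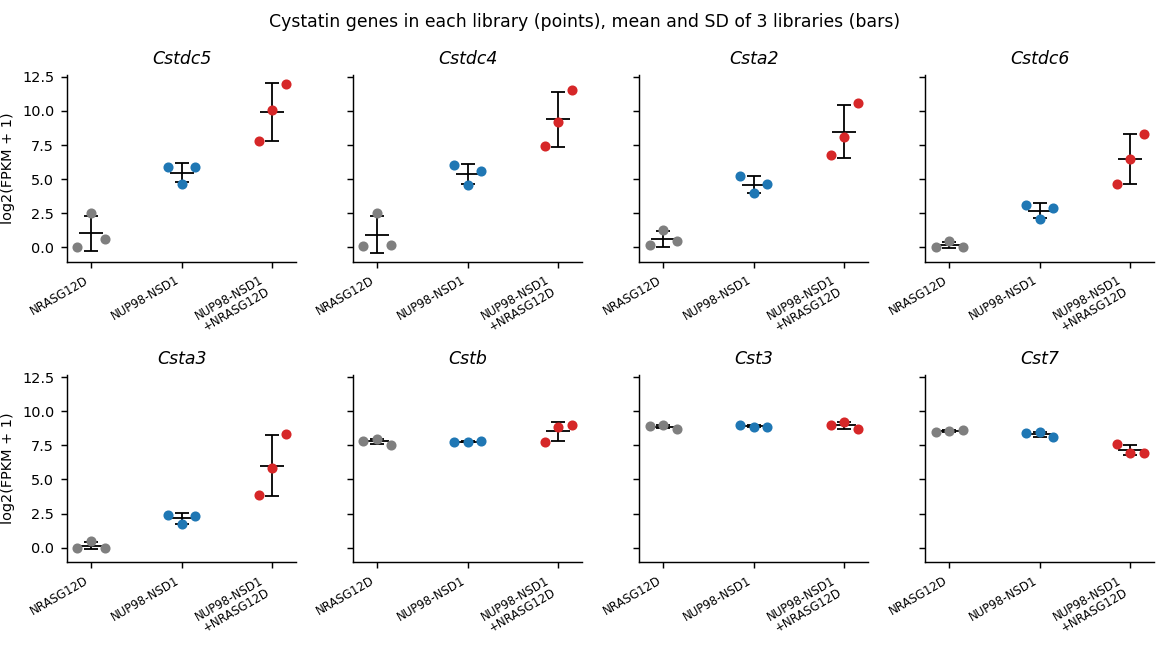
Level of each cystatin gene as log2(FPKM + 1) in the 9 libraries, with each point a library (replicates 1 to 3 from left to right in a group) and the bars the mean and SD of 3 libraries. The 5 genes of the stefin cluster step up from group to group, whereas Cstb and Cst3 overlap between all groups and Cst7 is lowest in NUP98-NSD1+NRASG12D cells.

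The study compared NUP98-NSD1 with NRASG12D cells to find genes that go with the fusion. All 5 cluster members were higher in NUP98-NSD1 cells by limma on log2(FPKM + 1), where 42.2% of all tested genes were higher past the same threshold (adjusted p under 0.05). Csta2, with 24.8 ± 10.5 (SD, n = 3) against 0.632 ± 0.697 FPKM (SD, n = 3), was higher by 3.98 ± 0.37 (SE) on the log2 scale (adjusted p = 0.00059). The log2 difference was 4.46 ± 0.68 for Cstdc4 (adjusted p = 0.00254), 4.45 ± 0.65 for Cstdc5 (adjusted p = 0.00221), 2.52 ± 0.28 for Cstdc6 (adjusted p = 0.000964) and 2.00 ± 0.23 for Csta3 (adjusted p = 0.00118), each with its SE. The median of the 5 was 3.98, against 0.27 over all tested genes. In these pooled cultures, fewer cells of a type and less RNA per cell cannot be told apart.

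The size of these changes depends on the value added before the logarithm, since the NRASG12D values are close to 0. With 0.1 in place of 1 the log2 fold change was 4.39 for Csta3 and 4.89 for Cstdc6. Csta3 lost its call when all 9 libraries were fitted together (adjusted p = 0.121), and the other 4 kept theirs under each alternative run. Without NRASG12D replicate 2, which held the trace of these genes, the log2 fold change of Cstdc5 was 5.18 (adjusted p = 0.000777).

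Between NUP98-NSD1+NRASG12D and NRASG12D cells the differences were larger. All 5 cluster members were called higher, where 24.2% of all tested genes were, and the groups did not overlap for any of the 5, where 38.7% of tested genes stood fully apart in this direction. Cstdc5 was higher by 8.92 on the log2 scale (95% interval 6.34 to 11.49, adjusted p = 0.00112). Cstdc4 followed with 8.45 (adjusted p = 0.00134), Csta2 with 7.87 (adjusted p = 0.000824), Cstdc6 with 6.33 (adjusted p = 0.00139) and Csta3 with 5.87 (adjusted p = 0.00433). Each of the 5 calls held in the 6 fits that left out a library and in the 7 other alternatives. This comparison and the one before share the NRASG12D libraries.

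The third comparison, NUP98-NSD1+NRASG12D against NUP98-NSD1, asks what the addition of NRASG12D goes with. Markers of cell types differed here too, with 8 of the 10 mast cell markers given below called lower, where 6.31% of tested genes were. The added insert and a change of cell types cannot be told apart in this comparison. All 3 libraries with both inserts exceeded all 3 with the fusion alone for each of the 5 genes, as given above. By limma, 3 of the 5 were called higher, where 2.3% of tested genes were. These were Cstdc5, higher by 4.47 on the log2 scale (95% interval 2.12 to 6.81, adjusted p = 0.0399), Cstdc6 by 3.81 (1.80 to 5.82, adjusted p = 0.0405) and Csta2 by 3.89 (1.76 to 6.01, adjusted p = 0.045). Cstdc4 with 3.99 (adjusted p = 0.0517) and Csta3 with 3.87 (adjusted p = 0.0624) lay just past the threshold. The fold changes of the 5 were alike, and the threshold falls among adjusted p-values that differ little.

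These calls rest on few libraries and on the setting. Without replicate 1 of NUP98-NSD1+NRASG12D, all 5 were called, with log2 fold changes of 4.73 to 5.55. Without its replicate 3, Csta2 alone was called (2.84, adjusted p = 0.0473) and Cstdc5 had 3.44 (adjusted p = 0.07). Leaving out replicate 2 of this group, or any replicate of NUP98-NSD1, ended all 3 calls, with adjusted p-values of 0.0841 to 0.149 for Cstdc5, Cstdc6 and Csta2. With no filter on low values the adjusted p of these 3 ran from 0.24 to 0.256, and after median-ratio scaling from 0.0554 to 0.0595. The direction was the same in every fit.

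**Figure D2:**
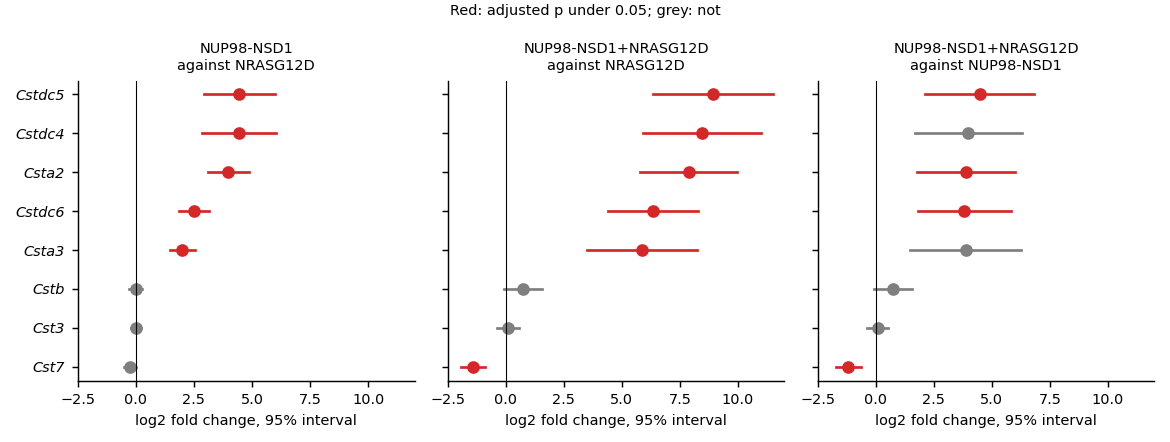
Log2 fold change (x axis, points) with its 95% interval (lines) for the 8 cystatin genes in the 3 comparisons, red where the adjusted p was under 0.05. The cluster genes lie to the right of 0 in each panel and Cstdc4 and Csta3 narrowly miss the threshold in the last, while the intervals of Cstb and Cst3 include 0 throughout.

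The NUP98-NSD1+NRASG12D libraries differed among themselves far more in the cluster genes than in a typical gene. The highest library exceeded the lowest 18.6-fold for Cstdc5, 23.9-fold for Csta3, 17.2-fold for Cstdc4, 14.0-fold for Csta2 and 13.1-fold for Cstdc6. On the log2 scale the SD of the 3 libraries was 1.83 to 2.24 for the 5 genes, against a median of 0.33 over all tested genes, and at least 99.2% of tested genes had a smaller SD. In NUP98-NSD1 cells the SD was 0.39 to 0.76 against a median of 0.16. Across the 9 libraries the 5 genes moved together, with a Pearson r of 0.962 (Csta3 and Cstdc4) to 0.998 (Cstdc4 and Cstdc5) between pairs. These are descriptions over 9 libraries in 3 groups, in which the genes share depth and in part reads. Csta3, which has no exact stretch in common with other genes, had an r of 0.994 with Cstdc6. With Cstdc4, Cstdc5 and Csta2 it had 0.962, 0.968 and 0.973, whereas pairs without Csta3 had 0.980 to 0.998. The part of shared reads in these values was not tested.

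The rest of the cluster went the same way. Of the 6 other genes, 5 were tested. All 5 were called higher in NUP98-NSD1 and in NUP98-NSD1+NRASG12D than in NRASG12D cells, where 42.2% and 24.2% of tested genes were. The median log2 fold changes were 1.96 and 5.92. These 5 also pass the filter through the groups in which they are high. Stfa1, Stfa2 and Stfa2l1 share 15.9% to 24.6% of their stretches of 50 bases with other genes, so the 5 are not independent evidence either. Between NUP98-NSD1+NRASG12D and NUP98-NSD1, all 5 had groups that did not overlap (11.6% of tested genes in this direction) and 1 was called higher (2.3%). Stfa3 had 0, 0.823 and 0 FPKM in NRASG12D, 5.95, 0.966 and 6.83 in NUP98-NSD1, and 20.8, 120 and 969 in NUP98-NSD1+NRASG12D cells. The pseudogene Cstdc3 stayed at or under 0.211 FPKM in every library and was not tested.

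Stfa1 was the gene called in the third comparison, and its libraries spread less. It had 0, 3.12 and 0.128 FPKM in NRASG12D, 88.3, 33.7 and 63.8 in NUP98-NSD1, and 285, 468 and 545 in NUP98-NSD1+NRASG12D cells. Its highest library with both inserts exceeded the lowest 1.91-fold, and it was higher than in NUP98-NSD1 cells by 2.84 ± 0.40 (SE) on the log2 scale (adjusted p = 0.0107). The make-up of the cluster signal differed between libraries. Stfa1 held 32.6%, 32.3% and 29.2% of the summed FPKM of the 11 genes in NUP98-NSD1 replicates 1 to 3, and 33.0%, 16.8% and 4.85% in those of NUP98-NSD1+NRASG12D. Cstdc5 held 21.2% to 26.6% and then 25.3%, 38.0% and 36.2% in the same order, and Stfa3 0.926% to 3.12% and then 2.41%, 4.29% and 8.62%. Stfa1 shares 19.4% of its stretches of 50 bases with Cstdc5, so reads of the pair can be exchanged in the count.

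**Figure D3:**
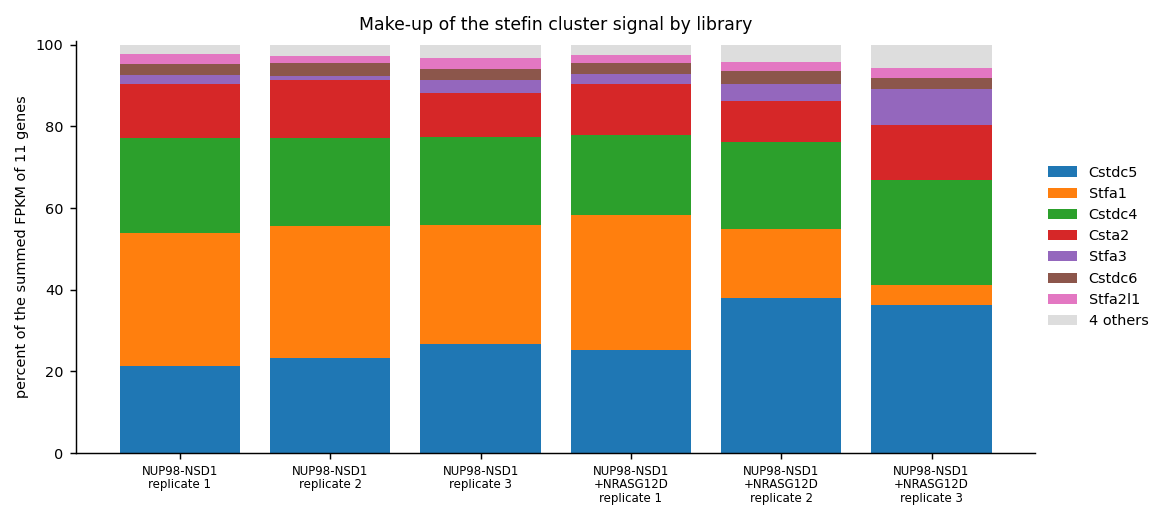
Percent of the summed FPKM of the 11 stefin cluster genes held by each gene in the 6 libraries with NUP98-NSD1, with the 4 lowest genes pooled. Stfa1 takes 29.2% to 33.0% in 4 libraries and 16.8% and 4.85% in replicates 2 and 3 of NUP98-NSD1+NRASG12D.

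**Figure D4:**
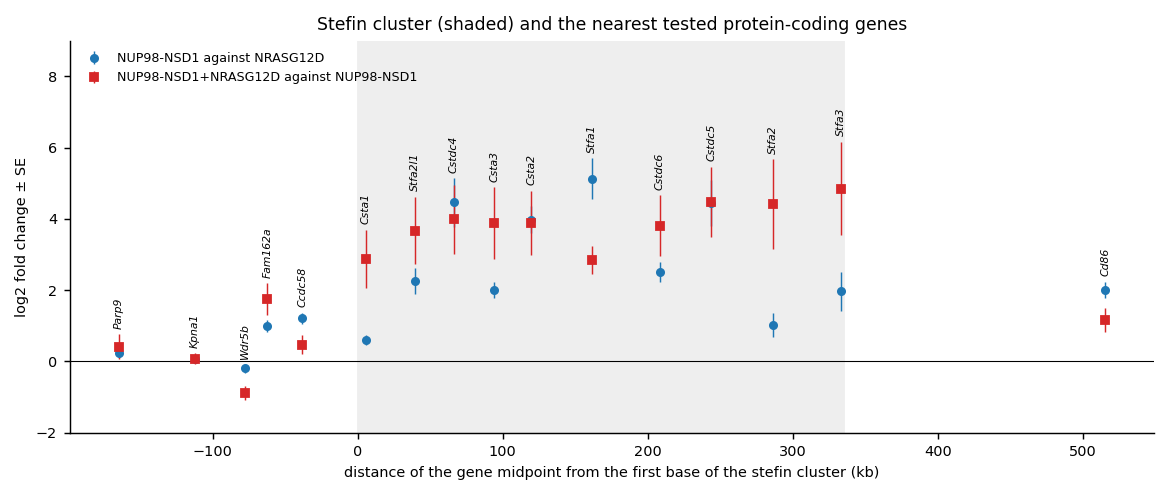
Log2 fold change ± standard error of each tested gene against the distance of its midpoint, in kb, from the first base of the stefin cluster (shaded), for 2 comparisons. Within the cluster the points for NUP98-NSD1+NRASG12D against NUP98-NSD1 lie between 2.84 and 4.85, and those of the 6 tested neighbours between -0.89 and 1.75.

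Some neighbours of the cluster on chromosome 16 followed the same order of groups and others did not. Of the 5 nearest protein-coding genes on each side, 6 were tested, and in NUP98-NSD1 against NRASG12D cells 3 of the 6 were higher, Ccdc58, Fam162a and Cd86, where 42.2% of all tested genes were. The same 3 were higher in NUP98-NSD1+NRASG12D than in NRASG12D cells, where 24.2% of tested genes were, and Wdr5b was lower. Cd86, which encodes a costimulatory ligand of antigen-presenting cells, had 0, 0.221 and 0.121 FPKM in NRASG12D and 4.88, 2.33 and 3.52 in NUP98-NSD1 cells (log2 difference 2.01 ± 0.22, SE, adjusted p = 0.000964). It had 10.4, 12.2 and 5.63 FPKM in NUP98-NSD1+NRASG12D cells, above each library of NUP98-NSD1 (adjusted p = 0.0751). Fam162a had 61.7, 66.6 and 57.6 FPKM in NRASG12D, 147, 136 and 94.1 in NUP98-NSD1, and 380, 239 and 794 in NUP98-NSD1+NRASG12D cells. Its groups stood apart in the order of the cluster, with replicate 3 the highest of the last group, and the log2 difference from NUP98-NSD1 was 1.75 (adjusted p = 0.0553). In NUP98-NSD1+NRASG12D against NUP98-NSD1 cells none of the 6 was called higher and Wdr5b, which overlaps Fam162a on the other strand, was lower, by -0.89 on the log2 scale (adjusted p = 0.0379). The nearest tested gene to the left, Ccdc58, had 33.2, 37.3 and 24.6 FPKM in NUP98-NSD1 and 60.3, 32.0 and 42.8 in NUP98-NSD1+NRASG12D cells, which overlap. To the right, Casr stayed at or under 0.0227 FPKM.

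Outside the cluster the picture was another one. Cystatin C, encoded by Cst3 on chromosome 2 from 148871722 to 148875692, was the most abundant of the 3 other members in 8 of 9 libraries. It had 486, 500 and 424 FPKM in NRASG12D, 498, 469 and 455 in NUP98-NSD1, and 503, 587 and 422 in NUP98-NSD1+NRASG12D cells. All 3 groups overlapped, and Cst3 ranked between 118 and 210 among all genes in every library. Against NRASG12D cells, its log2 fold change came to 0.01 in NUP98-NSD1 (95% interval -0.21 to 0.24, adjusted p = 0.907) and to 0.09 in cells with both inserts (-0.36 to 0.55, adjusted p = 0.727), and between the groups with the fusion to 0.08 (-0.39 to 0.55, adjusted p = 0.888). The sign depended on the scaling. Against NRASG12D cells, the median of all tested genes stood at 0.27 with the fusion alone and 0.23 with both inserts, and at 0.01 and 0.06 after median-ratio scaling, and with that scaling Cst3 had a log2 fold change of -0.29 and was called lower in NUP98-NSD1 cells (adjusted p = 0.0222).

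Stefin B, encoded by Cstb on chromosome 10 from 78425669 to 78427622, had 227, 250 and 186 FPKM in NRASG12D, 214, 217 and 225 in NUP98-NSD1, and 210, 457 and 519 in NUP98-NSD1+NRASG12D cells. Replicates 2 and 3 with both inserts were the highest of all, and replicate 1 lay among the other groups. Its log2 fold change was -0.01 (95% interval -0.28 to 0.27, adjusted p = 0.974) in NUP98-NSD1 against NRASG12D, and 0.75 (-0.07 to 1.57, adjusted p = 0.242) in NUP98-NSD1+NRASG12D against NUP98-NSD1 cells. Against NRASG12D cells, NUP98-NSD1+NRASG12D cells had 0.74 (-0.09 to 1.58, adjusted p = 0.133). Without replicate 1 of NUP98-NSD1+NRASG12D it was called higher, with 1.15 against NUP98-NSD1 (adjusted p = 0.00935) and 1.15 against NRASG12D (adjusted p = 0.00456). With array weights, which give libraries unequal weight, it was also called, with 1.08 (adjusted p = 0.00967) and 1.04 (adjusted p = 0.0097). Within NUP98-NSD1+NRASG12D cells, Cstb had its lowest value in the same library as the cluster genes, with a range of 1.30 on the log2 scale against 4.21 for Cstdc5.

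Cystatin F, encoded by Cst7 on chromosome 2 from 150570415 to 150578944, went the other way. It had 362, 384 and 393 FPKM in NRASG12D, 332, 354 and 278 in NUP98-NSD1, and 191, 120 and 122 in NUP98-NSD1+NRASG12D cells. The order of groups was the reverse of that of the cluster, and no groups overlapped. Over all tested genes, 13.5% stood fully apart in this direction in NUP98-NSD1 against NRASG12D cells, 19.9% in NUP98-NSD1+NRASG12D against NRASG12D, and 19.8% in NUP98-NSD1+NRASG12D against NUP98-NSD1. In cells with both inserts, it was called lower than in NRASG12D cells, as 14.1% of tested genes were, with a log2 difference of -1.43 ± 0.22 (SE, adjusted p = 0.00268), and lower than in NUP98-NSD1 cells, as 6.31% were, with -1.18 ± 0.23 (SE, adjusted p = 0.0296). The first call held in all 6 fits without a library, and the second in 1 of 6, the fit without replicate 1 of NUP98-NSD1+NRASG12D, with adjusted p-values of 0.00863 to 0.129. With no filter on low values the second call was lost as well (adjusted p = 0.144). In NUP98-NSD1 against NRASG12D cells, where 9.98% were called lower, it had -0.25 (adjusted p = 0.0907) and was not, but was called lower after median-ratio scaling (-0.55, adjusted p = 0.00312) and quantile normalization (-0.44, adjusted p = 0.00627).

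A ratio of 2 genes within a library does not depend on the scaling of the libraries, apart from the 1 FPKM added to each. The log2 ratio of Cstdc5 to Cst3 was -8.93 to -6.48 in NRASG12D libraries, -4.21 to -2.95 with the fusion alone and -1.20 to 3.27 with both inserts. That of Cst7 to Cst3 was -0.42 to -0.11, -0.71 to -0.40 and -2.28 to -1.39 in the same order. The groups did not overlap for Cstdc5 to Cst3 in any comparison, each with a two-sided exact permutation p of 0.1, the smallest that 3 libraries against 3 allow. For Cst7 to Cst3 the exact permutation p was 0.2 in NUP98-NSD1 against NRASG12D and 0.1 in both other comparisons. Summed over genes, the cluster held 0.417 to 15.6 FPKM in NRASG12D libraries and 104 to 271 FPKM where the fusion was alone, and 863, 2785 and 11247 FPKM where both were present, while Cstb, Cst3 and Cst7 together held 904 to 1163 FPKM in all 9 libraries. The cluster came to 0.000388 to 0.0137, then 0.1 to 0.259, and then 0.955, 2.39 and 10.6 times the sum of these 3 genes.

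The other cystatins were near 0. None of the 16 further genes of the superfamily, among them the testis and epididymis genes Cst8, Cst9, Cst11 and Cst12 and the liver genes Ahsg, Fetub, Hrg, Kng1 and Kng2, passed the filter, and the highest value among them was 0.776 FPKM (Cst6). Cstdc3 counts here and in the cluster.

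Of the 11 cysteine proteases that cystatins are known to inhibit or that belong to the same families, 10 were tested. In NUP98-NSD1 against NRASG12D cells 8 were higher (Ctsb, Ctsc, Ctsh, Ctsk, Ctsl, Ctss, Ctsz and Lgmn), where 42.2% of all tested genes were. Ctsf was lower, where 9.98% were, and the list median was 1.59 on the log2 scale. The same 8 were higher in NUP98-NSD1+NRASG12D against NRASG12D cells, where 24.2% of tested genes were. Ctsf was again lower, where 14.1% were, and the list median was 3.07. Ctsl, which encodes cathepsin L, had 0.109, 0.996 and 0.0784 FPKM in NRASG12D, 63.6, 49.9 and 42.7 in NUP98-NSD1, and 126, 811 and 236 in NUP98-NSD1+NRASG12D cells. In NUP98-NSD1+NRASG12D against NUP98-NSD1 cells Ctsh was higher (log2 fold change 1.62, 95% interval 1.01 to 2.23, adjusted p = 0.0157), Ctsf was lower (adjusted p = 0.0094) and 8 did not pass. Of all tested genes, 2.3% were higher and 6.31% lower in that comparison.

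The proteases peaked in another library than the stefins. Ctsb, which encodes cathepsin B, had 714, 5327 and 1683 FPKM in replicates 1 to 3 of NUP98-NSD1+NRASG12D, and Lgmn, which encodes legumain, had 83.6, 854 and 143. Ctsc, which encodes the cathepsin C that cystatin F is known to inhibit, had 699, 538 and 559 FPKM there, which overlap with the 556, 451 and 457 FPKM of NUP98-NSD1 cells. Summed over the 11 proteases, the 3 libraries held 2635, 10277 and 3853 FPKM, so replicate 2 was the highest for the proteases and replicate 3 for the cluster.

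Markers of cell types moved with both lists. Of 12 neutrophil markers, 10 were higher in NUP98-NSD1 than in NRASG12D cells, where 42.2% of all tested genes were. In NUP98-NSD1+NRASG12D cells, 10 were higher than in NRASG12D (24.2% of tested genes) and 6 than in NUP98-NSD1 (2.3%). Ltf, Camp and Retnlg were listed at 0 in all NRASG12D libraries. The summed level of the 12 was 3.19 to 10.9, then 657 to 1165, and then 2941, 6000 and 16909 FPKM. The highest library of the sum was that of the cluster, and S100a8 (8629 FPKM) and S100a9 (4273 FPKM) made up most of it there. Singly, Ltf, Camp, Mmp8 and Mmp9 were highest in replicate 2 of NUP98-NSD1+NRASG12D, Cxcr2 in replicate 1 and the other markers in replicate 3. S100a8, a calcium-binding protein of neutrophils and monocytes, had 0, 3.29 and 0.249 FPKM in NRASG12D, 410, 265 and 300 in NUP98-NSD1, and 1431, 2049 and 8629 in NUP98-NSD1+NRASG12D cells. NRASG12D replicate 2, which held the trace of stefins, held a trace of S100a8 as well. Over the 9 libraries the Pearson r with the mean of the 5 cluster members was 0.819 (Ly6g) to 0.989 (Cd177) for the 12 neutrophil markers.

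All 10 monocyte and macrophage markers were higher with the fusion alone than in NRASG12D cells, where 42.2% of all tested genes were. All 10 were also higher with both inserts than in NRASG12D cells, where 24.2% were. In NUP98-NSD1+NRASG12D against NUP98-NSD1 cells 1 of the 10 was higher, where 2.3% were. The summed level of the 10 was 44.6 to 60.2, then 520 to 975, and then 1836, 3452 and 4570 FPKM. Within this list the complement genes C1qa and C1qb and the mannose receptor Mrc1 were highest in replicate 2 of NUP98-NSD1+NRASG12D, as the proteases were, with 144, 485 and 132 FPKM. Of 10 mast cell markers, 5 were lower in NUP98-NSD1 libraries than in those of NRASG12D (Ms4a2, Kit, Cma1, Tpsb2 and Tph1), where 9.98% of tested genes were. Of the others, 3 were higher (Cpa3, Mcpt4 and Hdc), where 42.2% were, and 2 did not pass. The median of the mast cell list was -0.91 on the log2 scale. Without Cpa3, whose listed 0 in NRASG12D cells may be a failed estimate, the summed level of the 9 others was 35823 to 37856 FPKM in NRASG12D, 15401 to 20490 with the fusion alone, and 648, 2843 and 499 FPKM in NUP98-NSD1+NRASG12D replicates 1 to 3. In cells with both inserts, 8 of the 10 were lower than with the fusion alone, as Cst7 was, where 6.31% of tested genes were lower. The summed level of other lists reached 229 FPKM for eosinophils, 1603 for basophils, 105 for erythroid cells, 1241 for megakaryocytes and 10.5 for dendritic cells. Neither the B cell nor the T and NK cell list exceeded a sum of 9.19 FPKM in any library, and the pan-leukocyte gene Ptprc lay between 68.3 and 117 FPKM. The part of these cell types in the cystatin values was not tested.

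**Figure D5:**
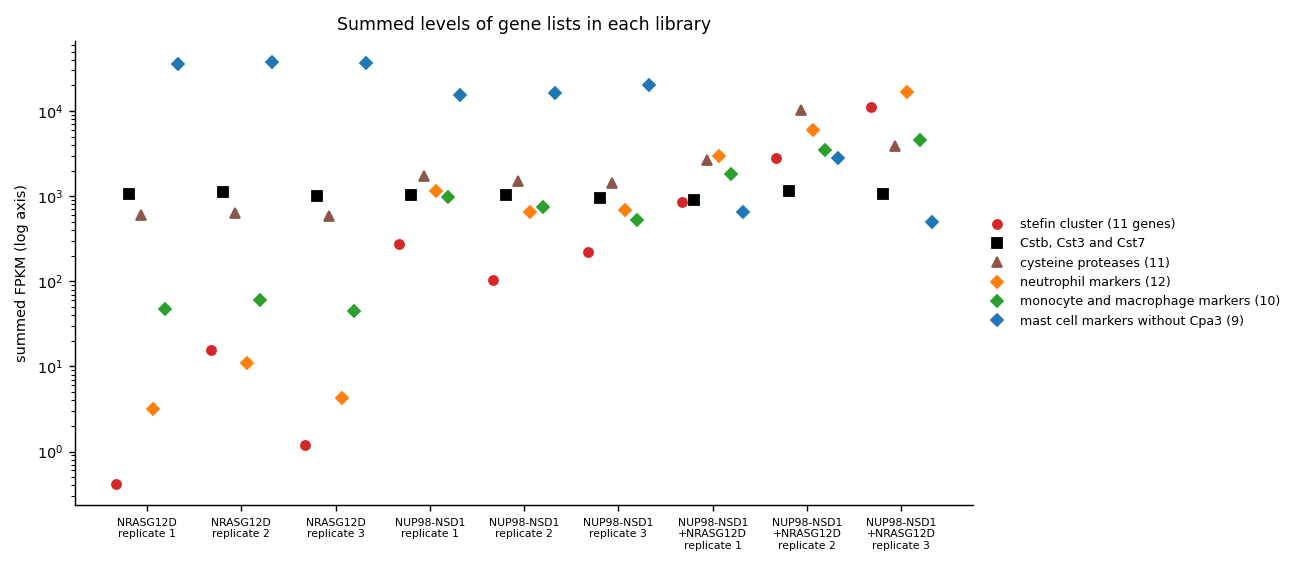
Summed FPKM (log axis) of the stefin cluster, of Cstb, Cst3 and Cst7, of 11 cysteine proteases and of 3 marker lists (that of mast cells without Cpa3) in each of the 9 libraries. In NUP98-NSD1+NRASG12D the sums of the cluster and of the neutrophil markers are highest in replicate 3 (11247 and 16909 FPKM). That of the proteases is highest in replicate 2 (10277 FPKM), and the sum of Cstb, Cst3 and Cst7 stays between 904 and 1163 FPKM throughout.

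The genes most like the cluster members over the 9 libraries, leaving out the cystatins themselves, were Plaur (Pearson r of log2 values 0.995), Lrrc8d (0.993), Pram1 (0.993), Tirap (0.992) and B430306N03Rik (0.990). Plaur encodes the urokinase receptor, and Tirap an adaptor of Toll-like receptors. Plaur had 5.39, 9.46 and 4.87 FPKM in NRASG12D, 28.6, 22.1 and 21.8 in NUP98-NSD1, and 39.6, 79.3 and 196 in NUP98-NSD1+NRASG12D cells. The likeness is common, since 909 genes had an r over 0.9 with the cluster profile. Cstb was most like Itga5 (0.990), Cmtm3 (0.976), Gja5 (0.967), Plek (0.967) and Usb1 (0.964). Cst7 was most like Vps33b (0.993), Plekha5 (0.990), Nedd4 (0.988), 5031425E22Rik (0.988) and Rsph3b (0.988), and 504 genes exceeded 0.9. Cst3, which varied least, had its closest match in Sav1 (0.924), then Tnip2 (0.916), Serpinb6b (0.914), Rnf170 (0.913) and Il15 (0.911), and 8 genes exceeded 0.9.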

How the data were processed

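RNA of 9 cultures, 3 per group, was sequenced in pairs of 50 bp reads. Per the labels' processing notes the authors used STAR 2.7.2a and Cufflinks 2.2.1 with GRCm38.p6, and the methods name GENCODE M22. The values the authors deposited are FPKM per gene and library, with no further scaling stated, and values of a repeated identifier were summed. Groups and replicate numbers came from the labels. The members and the gene lists were chosen with earlier results of these data known.

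Genes that reached an FPKM of 1 in 3 or more of the 9 libraries were fitted as log2(FPKM + 1) on the 6 libraries of each pair of groups with limma 3.58.1 in R 4.3.3 (eBayes with trend, no block), with p-values adjusted over all these genes by Benjamini-Hochberg and a threshold of 0.05. The scripts were tested on simulated data. Fold changes on this scale understate changes of low genes. For a ratio of 2 genes, a two-sided exact permutation test over libraries was run. Depth was estimated from the step between low FPKM of 3386 genes, and 81.6% to 84.5% of low values fell within 0.1 of a whole fragment. Fragment lengths are unknown, so counts of fragments are approximate. Sequence came from GENCODE M21 (54867 of 55274 identifiers with equal coordinates) and RefSeq, handled with Biopython 1.88 in Python 3.11.15. No labelled batch was found. The genes named are the members, the lists of cluster genes, cystatins, proteases and markers, neighbours of the cluster, and the 5 genes most like each profile. As alternatives, a pseudocount of 0.1, no filter, quantile and median-ratio scaling, a fit of all libraries, array weights, a replicate block and leaving out each library were run. The authors' DESeq2 comparisons were not used here.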

Additional observations from a re-analysis of the deposited data

How the results depend on the processing

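The numbers of called genes were 7036, 5173 and 1162 for NUP98-NSD1 and NUP98-NSD1+NRASG12D against NRASG12D and for NUP98-NSD1+NRASG12D against NUP98-NSD1. They moved by over 1.5 times in some settings, and the third did so in most. With all 9 libraries in a single fit the first was 3065 and the third 2251. The third was also 169 with no filter on low values and 3500 with array weights. Fits without a library ran from 4736 to 7948 for the first, 2941 to 6327 for the second and 283 to 2509 for the third. The share of higher calls in the first was 80.9%, falling to 43.2% with quantile normalization and to 52.3% with median-ratio scaling, and in the second 63.1%, 41.3% and 53.1%. Deviations of same-numbered libraries from their group means had correlations of -0.177 to 0.16. With 3 libraries per group, these cannot tell whether same-numbered libraries were paired, and no source used here says so. A replicate block gave 6864, 4531 and 801 calls, and in the third comparison it ended the call of Cst7 (adjusted p = 0.0512) and added Csta3 (0.0429) and Cstdc4 (0.0427).

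The log2 fold changes of the 5 cluster genes and Cst7 kept their sign in every fit. Those of Cst3 changed sign, from 0.01 to -0.14 with quantile normalization and -0.29 with median-ratio scaling in the first comparison, from 0.09 to -0.23, -0.11 and -0.05 with quantile normalization, median-ratio scaling and array weights in the second, and from 0.08 to -0.09 with quantile normalization and -0.04 with array weights in the third. Without a library, Cst3 ran from -0.06 to 0.06, -0.02 to 0.21 and -0.04 to 0.20 in the 3 comparisons (negative without NRASG12D replicate 3, at -0.06, without NUP98-NSD1 replicate 1, at -0.02, and without NUP98-NSD1+NRASG12D replicate 2, at -0.02 and -0.04), and Cstb from -0.12 to 0.09 in the first (0.02, 0.09, 0.01 and 0.00 where positive). Cst7 lost its call in the third comparison with no filter on low values (adjusted p = 0.144), and Cstb was called higher with array weights in the second comparison and in the third (0.0097 and 0.00967). In the third comparison, Csta2 also missed the threshold with a pseudocount of 0.1 (adjusted p = 0.0515) and with quantile normalization (0.0505). The cause of these changes was not tested. In NRASG12D cells the depth limits the cluster genes, of which Csta3 lay under the level of 3 fragments in each library.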

Other observations

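The tables hold 21 further rows within the bounds of the stefin cluster, 13 of them small nuclear RNA genes, and 1 of the 21 passed the filter on low values. These rows were singled out after their values were seen. The row that passed, the processed pseudogene Gm10913, lies between Cstdc4 and Csta3 at chr16:36209277-36209739. It had 2.86, 2.97 and 2.86 FPKM in NRASG12D, 4.85, 4.59 and 4.38 in NUP98-NSD1, and 6.26, 4.45 and 5.01 in NUP98-NSD1+NRASG12D cells. Its log2 fold change by limma was 0.52 (adjusted p = 0.00565), 0.67 (adjusted p = 0.0222) and, between the groups with NUP98-NSD1, 0.14 (adjusted p = 0.712). Gm10913 did not share the spread of its neighbours among the NUP98-NSD1+NRASG12D libraries. The unprocessed pseudogene Gm7260, between Cstdc5 and Stfa2, was listed at 0 in NRASG12D, at 0.457, 0 and 0 FPKM in NUP98-NSD1, and at 0.942, 3.47 and 10.9 in NUP98-NSD1+NRASG12D cells, with replicate 3 the highest as for the cluster genes. Of the 13 small nuclear RNA rows, 5 had a value above 0 in any library. Gm25465, which ends beside the 3′ end of Cstdc5 on the other strand, was listed at 29.9 FPKM in replicate 3 of NUP98-NSD1+NRASG12D and at 0 in the 8 other libraries.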
